A study of Mus musculus with 4 samples.

Results

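Axon guidance genes encode secreted and membrane-bound cues and the receptors that read them. They were first described as signals that attract or repel growing nerve fibres, and the same proteins steer endothelial and stromal cells. Semaphorins signal mainly through plexins, ephrins through Eph receptor kinases, Slits through Robo receptors, and netrins through Dcc, neogenin and Unc5 receptors. In vessels these pathways are known for tip cell guidance, for the boundary between arteries and veins, and for the remodelling of lymphatic vessels. The genes described here were all those of the array whose symbol places them among class 3 to class 7 semaphorins, plexins A to D, EphA and EphB receptors, ephrins, Slit1 to Slit3, Robo1 to Robo3, numbered netrins and Unc5a to Unc5d. They came to 64 genes of the 18193 named on the array, measured by 139 probe sets, and the brightest probe set of a gene on average stood for it. The rule uses gene names and no measured value, but it was written with earlier results of these data known.

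The cells came from axillary lymph nodes that drained tumours grown under the skin of female SCID/NOD mice aged 6 to 8 weeks, a strain without mature T and B lymphocytes. All tumours grew from derivatives of the human embryonic kidney line 293. The metastatic group carried 293-VEGF-D cells, which overexpress the lymphatic growth factor VEGF-D, and the non-metastatic group carried 293-Apex cells. Nodes were taken at a tumour volume of 1600 to 2500 mm3, after 3 to 4 weeks, and a preparation pooled nodes from 1 to 5 animals. In the metastatic group a node entered only if it was visibly enlarged. All cells were digested, cultured briefly in endothelial growth medium and selected with magnetic beads for podoplanin, which marks lymphatic endothelium and also fibroblastic reticular cells. The sorting label gives depletion of tumour cells and leukocytes before culture for the metastatic group only, while the growth protocol describes it for both. VEGF-D and node enlargement go with the group and cannot be told apart from metastasis, and the same holds for the depletion if it was done in the metastatic group only. Each group had 2 biological replicates with 1 Affymetrix array each, so 4 arrays were compared, and values are log2 signals per probe set. The number of arrays limits the precision.

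In the selected cells most fibroblast and reticular cell markers were bright, while the endothelial markers were mixed. Of 8 fibroblast and reticular cell markers, 7 had a mean signal at or above the median of all probe sets (5.95), as had 4 of 7 blood endothelial and 3 of 5 lymphatic markers. So had 6 of 8 smooth muscle, 5 of 8 neuronal and glial, 4 of 7 epithelial and mesothelial and 3 of 6 leukocyte markers. Over all genes 11922 of 18193 did, so these counts do not set endothelium apart. Under that median lay the endothelial gene Pecam1, at 4.76 and 4.78 against 5.36 and 4.87 (metastatic against non-metastatic arrays), and the lymphatic transcription factor gene Prox1, at 4.12 and 3.74 against 4.17 and 3.96. Above it on average were the endothelial receptor gene Kdr, at 7.55 and 7.64 against 7.44 and 7.50, and the lymphatic receptor gene Flt4, at 6.18 and 6.39 against 6.61 and 6.23. The summed linear signal of the 8 fibroblast markers was 59587 to 62274 in the metastatic group and 59714 to 64445 in the non-metastatic group. The sum over 8 smooth muscle and pericyte markers was 17615 to 28620 against 33845 to 35829, and 7 of the 8 were lower. Sums were also lower without overlap for 7 blood endothelial markers (631 to 671 against 859 to 1109, 4 of 7 lower), 6 leukocyte markers (894 to 1081 against 1293 to 1387, 4 of 6 lower) and 8 markers of neurons and glia (678 to 832 against 878 to 916, 6 of 8 lower). They overlapped for 7 markers of epithelium and mesothelium (873 to 1434 against 1047 to 1393). The sum over 5 lymphatic markers was higher (1975 to 2114 against 1652 to 1756), but most of it was Pdpn, the gene of the selection marker, at 10.89 and 10.83 against 10.35 and 10.35. Of these 5 markers 3 were lower, and the 4 other than Pdpn summed to 149 to 216 against 348 to 455. Among those 4 only Lyve1 was lower without overlap. Prox1 (difference -0.14) and Flt4 (-0.13) overlapped between groups, and Reln was higher, at 5.55 and 5.08 against 5.06 and 5.07. Lyve1, a hyaluronan receptor gene of lymphatic endothelium, had 6.32 and 4.23 against 8.26 and 7.80, which is 6.77-fold lower signal (limma adjusted p = 0.498). The lower blood endothelial sum rested on Emcn, the gene of the surface protein endomucin, at 6.50 and 5.66 against 8.77 and 8.45 (limma adjusted p = 0.185). Without Emcn the sums overlapped, at 580 to 581 against 510.2 to 671, and without S100b those for neurons and glia overlapped too. These sums without 1 gene were added after the data were seen. The marker levels differed between the groups, and their part in the differences below was not tested. In such bulk samples fewer cells of a type and less RNA per cell cannot be told apart. No detection calls were used here, so no marker can be said to be absent.

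Several guidance cues were lower in the metastatic group, led by the ligands Sema3e and Ntn4 and the receptor Unc5c, while most of the 64 genes differed by little. No gene passed limma with Benjamini-Hochberg adjustment over all 45037 probe sets at 0.05, neither among the 64 (smallest adjusted p = 0.235, Ntn4) nor among all 18193 genes (0% called). At an unadjusted p under 0.05 limma had 6 of the 64 lower (9.38%, against 4.07% of all genes) and 1 higher (1.56%, against 2.63%). The 6 were Ntn4, Sema3e, Unc5c, Sema6d, Slit2 and Plxna2, and the higher gene was Efna4. Both metastatic arrays lay below both non-metastatic arrays for 13 genes (20.3%, against 17.3% of all genes) and above them for 5 (7.81%, against 17.2%). With 2 arrays a group, the smallest p that an exact two-sided permutation test allows is 0.333. By sign, 39 of the 64 were lower (against 50.1% of all genes) and 25 higher. The median difference (metastatic minus non-metastatic, log2) was -0.05, where the median of all genes was -0.00034. The median of the 64 turned to 0.03 without metastatic replicate 1, where that of all genes was 0.011. Without metastatic replicate 2, the genes lower at an unadjusted p under 0.05 numbered 11 in place of 6, 5 of them from the 6 above (17.2%, against 8.1% of all genes in the same fit).

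**Figure D1:**
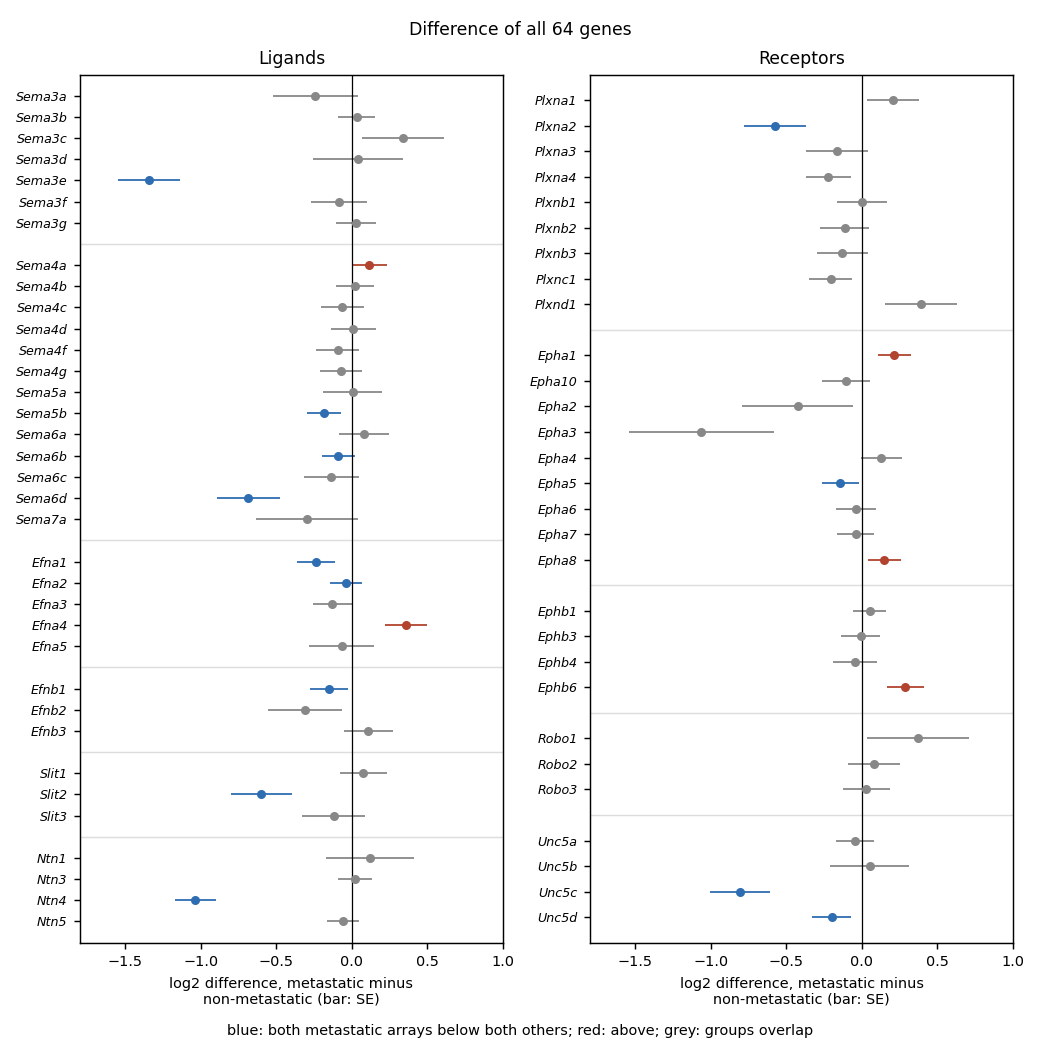
Difference in log2 signal (metastatic minus non-metastatic, x axis) for each of the 64 genes, ligands at left and receptors at right, with the standard error from limma as a bar; blue points have both metastatic arrays below both non-metastatic arrays (13 genes), red points above (5 genes), and grey points overlap. The ligands Sema3e and Ntn4 lie furthest to the left among genes whose groups do not overlap, at -1.34 and -1.04, and most other points lie near 0.

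Among the 7 class 3 semaphorins, which are secreted and mostly act through neuropilin and plexin complexes, Sema3e stood apart. Sema3e encodes a semaphorin that binds plexin D1 directly and is known to repel endothelial cells. Its log2 signal was 8.26 and 8.02 on the metastatic arrays and 9.21 and 9.75 on the non-metastatic arrays. Both metastatic arrays were lower than both others, by more than the gap between replicates of either group. The group values were 8.14 ± 0.17 against 9.48 ± 0.39 (mean ± SD, n = 2 each). The difference was -1.34 (SE 0.21), with a 95% interval from limma's moderated test of -1.85 to -0.83, and the signal was 2.54-fold lower (limma adjusted p = 0.314). All 4 probe sets of Sema3e had non-overlapping groups, with differences of -1.34, -1.17, -1.17 and -0.93. The other class 3 members lay between -0.24 and 0.34, and all 6 had overlapping groups in their brightest probe sets. Sema3a, the classic collapsing factor of growth cones, had 7.43 and 7.89 against 7.52 and 8.28 (metastatic against non-metastatic arrays, in this order from here on). Sema3c had 8.40 and 8.46 against 8.51 and 7.67, with only non-metastatic replicate 2 low. Its difference of 0.34 (SE 0.27) became -0.086 without that array. The other, dimmer probe set of Sema3c had 6.68 and 6.75 against 6.54 and 6.24, higher without overlap at 0.33 (SE 0.14). Sema3f, a ligand of neuropilin 2, had 10.15 and 10.63 against 10.37 and 10.57, a difference of -0.082 (SE 0.19). That probe set is marked in the array's naming as able to bind several transcripts. A dimmer, unmarked one overlapped at -0.16 (SE 0.14). The dimmest, also marked, was lower without overlap at -0.46 (SE 0.23). In the RefSeq annotation (GRCm38.p6) Sema3d, Sema3a and Sema3e lie near each other on chromosome 5, with 0 and 3 protein-coding genes between neighbours. Their differences were 0.042, -0.24 and -1.34.

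The 13 semaphorins of classes 4 to 7 are bound to the membrane, and 8 had negative differences (median -0.07). Sema6d, a transmembrane ligand of plexin A1, had 9.73 and 9.18 on the metastatic arrays and 10.01 and 10.27 on the non-metastatic arrays. Both metastatic arrays were below both others, and metastatic replicate 2 was the lowest of the 4. The difference was -0.68 (SE 0.21), or 1.61-fold lower signal (limma adjusted p = 0.661), and it was -0.41 without metastatic replicate 2. The 3 dimmer probe sets of Sema6d went the other way, at 0.051, 0.035 and 0.11, and the mean over its probe sets stood at -0.12. The lower value therefore rests on 1 of 4 probe sets. Sema5b, with thrombospondin repeats, had non-overlapping groups at 6.00 and 6.15 against 6.27 and 6.25, but its other probe set was higher, and the mean of both stood at 0.053. Sema4a, known from T cell costimulation, had 5.51 and 5.36 against 5.32 and 5.31, a small positive difference of 0.12 (SE 0.11). Sema6c overlapped between groups, with 8.52 and 9.02 against 8.88 and 8.94.

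Ntn4 had the smallest p of the 64 genes. It encodes netrin-4, a netrin that binds laminin in basement membranes, among them those of vessels. Its log2 signal was 6.85 and 6.59 on the metastatic arrays and 7.83 and 7.69 on the non-metastatic arrays. The gap between the groups was several times the gap between replicates of 1 group. The means were 6.72 ± 0.18 against 7.76 ± 0.10 (mean ± SD, n = 2 each). This is 2.05-fold lower signal, a difference of -1.04 (SE 0.14) with a 95% interval of -1.38 to -0.70 (limma adjusted p = 0.235). Its other probe set was also lower without overlap, at -0.43, which is a smaller difference. The other 3 netrins were close to 0. Ntn1, the prototype netrin, had 6.88 and 6.00 against 6.46 and 6.18, with metastatic replicate 1 above the other 3 arrays, and its difference of 0.12 (SE 0.29) turned to -0.32 without that array. Ntn5 had 6.49 and 6.56 against 6.55 and 6.61, a difference of -0.058 (SE 0.11).

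Among the 3 Slit ligands, large secreted proteins that repel cells bearing Robo receptors, Slit2 was lower. It had 9.62 and 9.23 on the metastatic arrays and 10.24 and 9.81 on the non-metastatic arrays. In both groups replicate 1 was the higher array, and the lowest non-metastatic array exceeded the highest metastatic one by a small margin. The difference was -0.60 (SE 0.20), which is 1.51-fold lower signal (limma adjusted p = 0.72), and it was -0.38 without non-metastatic replicate 1. All 3 probe sets of Slit2 were lower, at -0.60, -0.46 and -0.16, the last with overlapping groups. Slit3 had 10.14 and 9.75 against 10.30 and 9.83 and a difference of -0.12 (SE 0.21). It too was higher in replicate 1 of both groups, and the groups overlapped. Slit1 had 6.37 and 6.61 against 6.26 and 6.57, a difference of 0.076 (SE 0.16).

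Ephrins are cell-surface ligands that signal on contact. Ephrin-A ligands are held by a lipid anchor and ephrin-B ligands cross the membrane. Of the 5 ephrin-A genes, 4 were lower and 1, Efna4, was higher. Efna4 had 7.42 and 7.60 on the metastatic arrays and 7.03 and 7.26 on the non-metastatic arrays, a difference of 0.36 (SE 0.14) (limma adjusted p = 0.788). Its groups did not overlap, and its only probe set is marked in the array's naming as able to bind several transcripts. The value was 0.24 without non-metastatic replicate 1. Efna1, which tumour necrosis factor is known to induce in endothelium, had 5.39 and 5.17 against 5.51 and 5.53, a difference of -0.24 (SE 0.12). Its other probe set had 0.02. Efna5 had 8.54 and 8.58 against 8.31 and 8.94, with the non-metastatic arrays on both sides of the metastatic ones, and Efna3 had 6.18 and 5.94 against 6.22 and 6.16. Efna1, Efna3 and Efna4 are direct neighbours on chromosome 3 in the RefSeq annotation, and their differences were -0.24, -0.13 and 0.36. Among the ephrin-B genes, Efnb2, which marks arterial and lymphatic valve endothelium, had 8.97 and 9.65 against 9.77 and 9.47. Only metastatic replicate 1 was low, and the difference of -0.31 (SE 0.24) became 0.027 without that array. Another of the 4 probe sets of Efnb2 was lower without overlap, with 8.35 and 8.76 against 8.93 and 8.83 (-0.32, SE 0.16). The dimmest was higher without overlap at 0.18, and the remaining one overlapped at -0.0087. Efnb1 had 9.37 and 9.59 against 9.67 and 9.59, a difference of -0.15 (SE 0.13). Its groups were separated by a very small margin, and the difference was -0.041 without metastatic replicate 1. Efnb3 had 5.91 and 6.25 against 5.85 and 6.09, and its groups overlapped.

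**Figure D2:**
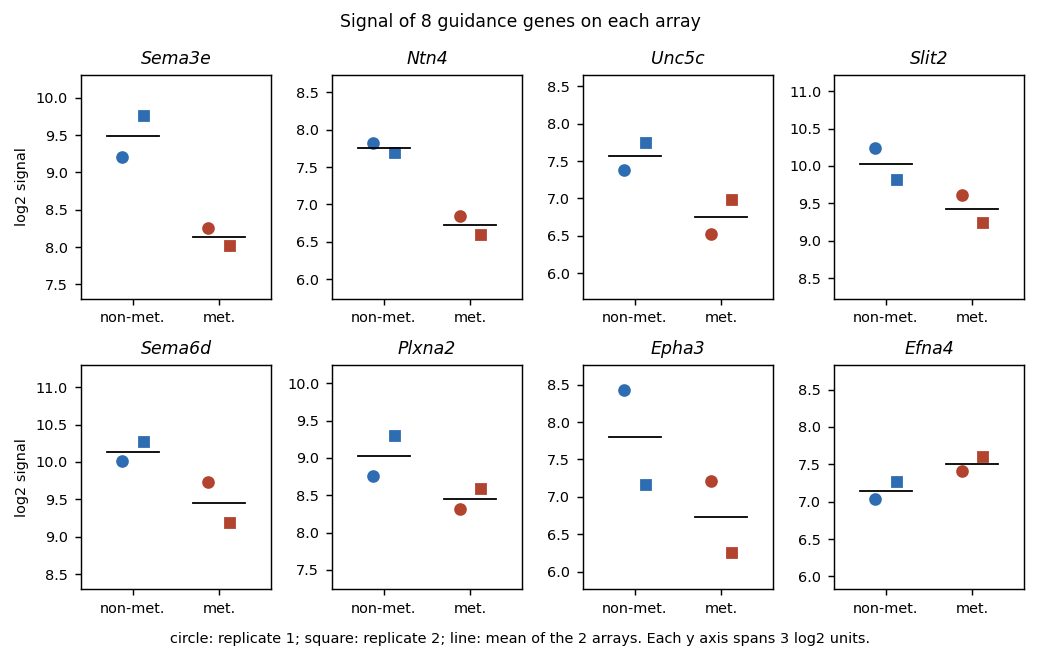
Log2 signal (y axis) of 8 guidance genes on each of the 4 arrays, non-metastatic in blue and metastatic in red, with circles for replicate 1, squares for replicate 2 and a line at the mean of each group; every y axis spans the same number of log2 units. The groups are separated for Sema3e, Ntn4, Unc5c, Slit2, Sema6d, Plxna2 and Efna4, while in Epha3 replicate 1 of the metastatic group (7.21) lies above replicate 2 of the non-metastatic group (7.16).

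Of the 4 Unc5 receptors, which turn the netrin signal into repulsion, Unc5c had the largest difference. Its log2 signal was 6.53 and 6.98 on the metastatic arrays and 7.39 and 7.74 on the non-metastatic arrays. Replicate 2 was the higher array in both groups, and the groups did not overlap. The difference was -0.81 (SE 0.20), which is 1.75-fold lower signal, with a 95% interval of -1.30 to -0.31 (limma adjusted p = 0.537). The other probe set of Unc5c, dimmer on average, gave a larger difference of -1.47 (SE 0.13, limma adjusted p = 0.113), with 4.63 and 4.51 against 5.94 and 6.13. Unc5b, the family member known from endothelial tip cells, had 9.62 and 10.40 against 9.84 and 10.07. Its replicates in the metastatic group lay further apart than the groups, and the difference was 0.051 (SE 0.26) with a 95% interval of -0.60 to 0.70. Unc5d was dim, with 3.62 and 3.73 against 3.76 and 3.99, and also lower without overlap, by a difference of -0.20 (SE 0.13). Unc5a had 7.08 and 7.31 against 7.24 and 7.25.

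The 9 plexins, the semaphorin receptors, were lower in 7 cases and higher in 2 (median -0.13). Plxna2, a receptor of class 6 and, with neuropilins, class 3 semaphorins, had 8.32 and 8.59 on the metastatic arrays and 8.76 and 9.30 on the non-metastatic arrays. The groups did not overlap, and non-metastatic replicate 2 was the highest array. The difference was -0.57 (SE 0.21), which is 1.49-fold lower signal (limma adjusted p = 0.763), and it was -0.31 without non-metastatic replicate 2. All 4 probe sets of Plxna2 were lower, between -0.63 and -0.29, 2 of them without overlap. Plxnd1, the receptor of Sema3e, had 7.74 and 7.02 against 6.92 and 7.05. Only metastatic replicate 1 stood above the other arrays, so the difference of 0.39 (SE 0.24) shrank to 0.032 without it. Plxnb2 had 10.83 and 11.23 against 11.06 and 11.22 and Plxna4 6.67 and 6.97 against 6.96 and 7.12, both with overlapping groups. The Plxna4 difference of -0.22 was -0.073 without metastatic replicate 1, and its other probe set stood at 0.045. Plxna1, the receptor of Sema6d, had 9.23 and 9.68 against 9.21 and 9.29, where metastatic replicate 2 alone was higher. The other, dimmer probe set of Plxna1 had 5.88 and 6.22 against 5.78 and 5.76, higher without overlap at 0.28 (SE 0.15). In 8 of the 9 plexins, all but Plxnd1, replicate 2 exceeded replicate 1 in both groups.

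Eph receptors are tyrosine kinases. Among 9 EphA genes 6 differences were negative, and among 4 EphB genes 2 were. Epha3, a receptor of ephrin-A5, had 7.21 and 6.25 on the metastatic arrays and 8.43 and 7.16 on the non-metastatic arrays. Replicate 1 exceeded replicate 2 by about as much as the groups differed, and the groups overlapped. Its difference of -1.06 (SE 0.48) had a 95% interval of -2.26 to 0.13 (limma adjusted p = 0.859), and it ranged from -1.70 without non-metastatic replicate 2 to -0.43 without non-metastatic replicate 1. Of its 4 probe sets, 3 were lower and the dimmest stood at 0.017. A lower one at -0.64 (SE 0.29) had groups without overlap, with 5.75 and 5.41 against 6.65 and 5.80. Epha2, whose arrays read 7.19 and 7.90 against 7.50 and 8.45, had a difference of -0.42 (SE 0.37), which turned to 0.052 without non-metastatic replicate 2. Higher values without overlap were seen for Epha1, Epha8 and Ephb6, all by small amounts. Epha1 had 6.69 and 6.64 against 6.47 and 6.44, Epha8 had 5.51 and 5.63 against 5.43 and 5.41, and Ephb6, which lacks kinase activity, had 4.65 and 4.61 against 4.45 and 4.24. Their differences were 0.22 (SE 0.11), 0.15 (SE 0.11) and 0.29 (SE 0.12). The other 2 probe sets of Epha1 stood at -0.054 and -0.036 with overlapping groups, and the mean of all 3 at 0.042. Epha8 and Ephb6 had mean signals under the median of all probe sets. Ephb4, the venous receptor of ephrin-B2, had 7.99 and 8.25 against 8.05 and 8.28, a difference of -0.045 (SE 0.15) with a 95% interval of -0.41 to 0.32. Ephb3 had 8.49 and 8.30 against 8.32 and 8.49, Ephb1 had 5.38 and 5.44 against 5.39 and 5.32 and Epha10 had 7.33 and 7.69 against 7.52 and 7.71, and the groups overlapped in all 3.

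The 3 Robo receptors had mean signals under the median of all probe sets, and their groups overlapped. Robo1, the main receptor of Slit2, had 6.56 and 5.63 against 6.01 and 5.44. Replicate 1 was higher in both groups, and the difference of 0.37 (SE 0.34) turned to -0.094 without metastatic replicate 1. Robo2 had 3.55 and 3.74 against 3.36 and 3.78 and Robo3 5.55 and 5.26 against 5.50 and 5.25. Robo4, the endothelial member of the family, which lies outside the 64, had 5.22 and 5.38 against 5.34 and 5.42, a difference of -0.08 (SE 0.12).

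The values of ligands can be set beside those of receptors known for them or for their family. The Sema3e difference of -1.34 stood beside 0.39 for Plxnd1 and -0.16 for the co-receptor gene Nrp1. For Ntn4 at -1.04, receptors known for netrins as a family stood at -0.81 (Unc5c), 0.051 (Unc5b), 0.30 (Neo1, neogenin) and 0.037 (Dcc). Whether netrin-4 acts through each of these was not tested. Slit2 at -0.60 stood beside 0.37 for Robo1, and Sema6d at -0.68 beside 0.21 for Plxna1 and -0.22 for Plxna4. Without metastatic replicate 1, Plxnd1 stood at 0.032, Robo1 at -0.094 and Plxna4 at -0.073. Without metastatic replicate 2, Plxna1 stood at -0.019. Whether a ligand differed from its receptor was not tested. Over all 35 ligands 21 were lower, with a median of -0.07, and over all 29 receptors 18 were lower, with a median of -0.04.

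**Figure D3:**
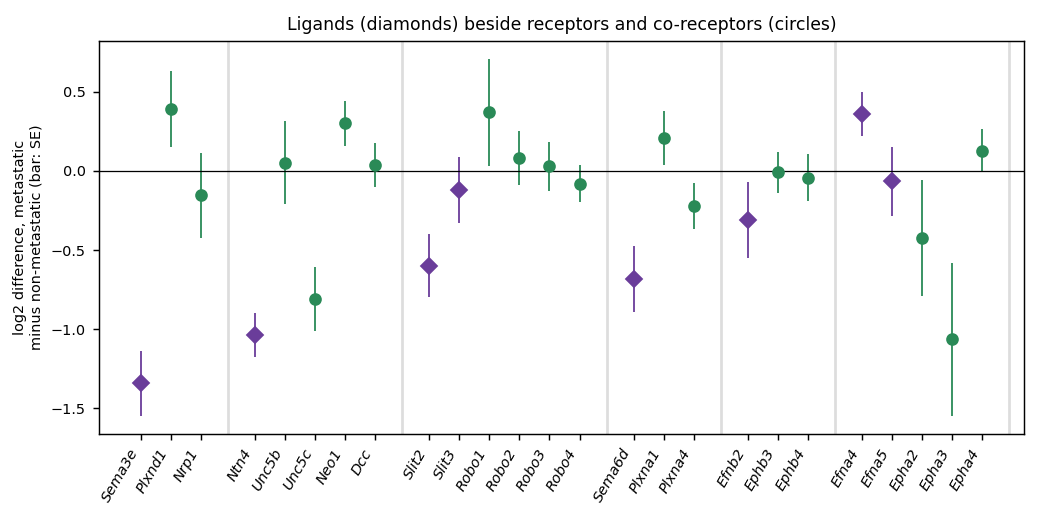
Difference in log2 signal (metastatic minus non-metastatic, y axis) for ligands as purple diamonds, with standard errors from limma as bars. Receptors and co-receptors known for each ligand or its family are green circles, in 6 groups. Sema3e, Ntn4, Slit2 and Sema6d lie between -1.34 and -0.60, and among the receptors shown Unc5c (-0.81) and Epha3 (-1.06) lie lowest.

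Among 16 co-receptors and partner proteins of these pathways, 9 were higher and 7 lower, with a median of 0.02. None passed the adjusted test. Nrp2, the neuropilin that binds Sema3f and VEGF-C, had 8.13 and 8.66 against 7.43 and 7.93. At an unadjusted p under 0.05, 1 of the 16, Nrp2, was higher, as were 2.63% of all genes. Flrt2, an adhesion protein that binds Unc5 receptors, had 9.44 and 9.51 against 10.19 and 9.67, a difference of -0.45 (SE 0.19). Gpc1, a glypican that binds Slit2, had 7.98 and 8.46 against 7.49 and 7.93, a difference of 0.51 (SE 0.22). Neo1 had 7.94 and 8.26 against 7.78 and 7.82, Plxdc2 10.30 and 10.12 against 10.46 and 9.83, and Adam10, a protease that sheds ephrins, 10.89 and 11.08 against 11.09 and 11.07. Neo1 alone of these 3 was higher without overlap. Of 36 measured genes for intracellular partners, 23 had negative and 13 positive differences (median -0.04), and none passed the adjusted test. At an unadjusted p under 0.05, 2 of the 36 were lower and 1 higher, where 4.07% of all genes were lower and 2.63% higher. Rnd1, a small GTPase that binds plexins, had 6.18 and 6.18 against 6.90 and 7.22, a difference of -0.89 (SE 0.14). Nck2, an adaptor that links guidance receptors to actin, had 7.92 and 7.85 against 7.29 and 7.43, a difference of 0.53 (SE 0.11). Fyn, a kinase downstream of plexins, had 0.40 (SE 0.17). The abundant effector genes Dpysl2 and Cfl1 had 0.16 (SE 0.17) and 0.015 (SE 0.11).

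The probe sets of a gene read different stretches of its transcripts and so measure the same RNA more than once on an array. Of the 64 genes, 42 had more than 1 probe set, and in 21 of these all probe sets had the same sign. Among the 6 genes lower at an unadjusted p under 0.05, all probe sets were lower in 5, and Sema6d was the exception. When the probe sets of each gene were averaged, 5 of the 6 remained lower at an unadjusted p under 0.05, at -1.15 for Sema3e, -1.14 for Unc5c, -0.73 for Ntn4, -0.48 for Plxna2 and -0.40 for Slit2.

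**Figure D4:**
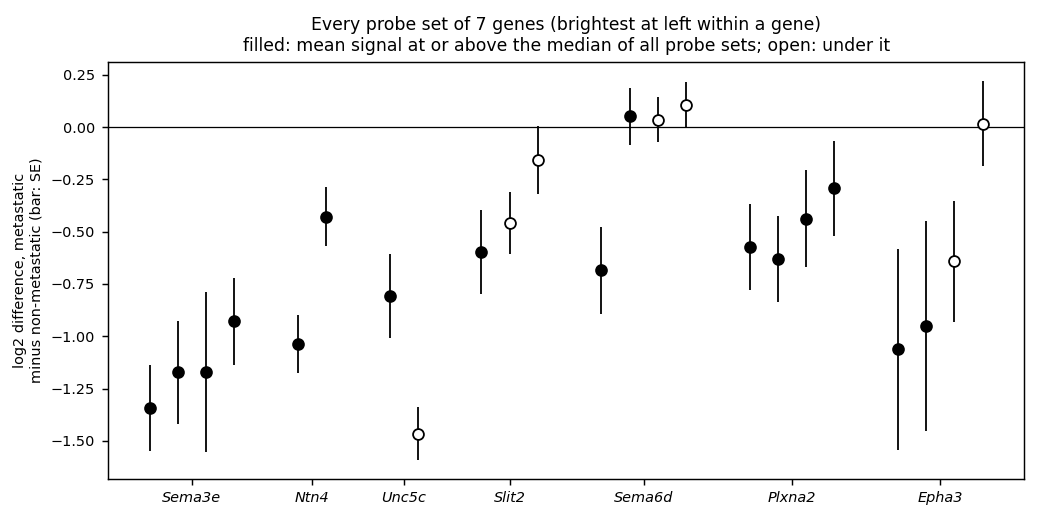
Difference in log2 signal (metastatic minus non-metastatic, y axis; bars are standard errors from limma) for every probe set of 7 genes, ordered by mean signal within a gene; filled points have a mean signal at or above the median of all probe sets (5.95) and open points lie under it. All 4 probe sets of Sema3e lie between -1.34 and -0.93, whereas 3 of the 4 of Sema6d lie slightly above 0.

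Replicates of 1 group often differed by more than the groups did. The gap between the metastatic replicates exceeded the group difference in 45 of the 64 genes (70.3%, against 66.1% of all genes), and the gap between the non-metastatic replicates did so in 36 (56.2%, against 51.6%). Metastatic replicate 2 exceeded replicate 1 in 41 of the 64, with a median of 0.16, where the median over all genes was 0.02. In the non-metastatic group it did so in 40, with a median of 0.06 against 0.01. All 4 Unc5 receptors and 8 of the 9 plexins were higher in replicate 2 of both groups. Sema7a, with 6.84 and 7.86 against 7.47 and 7.84, and Sema3d, with 6.56 and 7.46 against 7.13 and 6.81, are examples chosen after their values were seen. The 22 genes not singled out by the naming rule had differences of -0.30 to 0.13, with 13 lower and 9 higher. Of these 22, 3 had groups without overlap, all lower, where 17.3% of all genes were lower without overlap and 17.2% higher.

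The start regions of the genes with the smallest p are shown because their brightest probe sets were lower without overlap, although none passed the adjusted test. The windows run from 250 bases before to 50 bases after the annotated start and come from RefSeq on the GRCm38.p6 build, on the plus strand in all 4 cases: Ntn4 at chr10:93640799-93641098, Sema3e at chr5:14025026-14025325, Unc5c at chr3:141465314-141465613 and Sema6d at chr2:124089719-124090018 (the first of its 2 windows). They are written 5′ to 3′, and capitals mark matches on either strand to the GC box GGGCGG, the palindromic E-box CACGTG, the TATA box TATAAA, the AP-1 site TGANTCA and the SMAD palindrome GTCTAGAC.
Ntn4: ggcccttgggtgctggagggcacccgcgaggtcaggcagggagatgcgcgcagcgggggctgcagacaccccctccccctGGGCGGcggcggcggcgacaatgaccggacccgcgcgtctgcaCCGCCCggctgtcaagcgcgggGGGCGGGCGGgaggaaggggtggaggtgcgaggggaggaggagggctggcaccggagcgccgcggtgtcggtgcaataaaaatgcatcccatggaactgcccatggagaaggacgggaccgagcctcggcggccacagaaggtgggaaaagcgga
Sema3e: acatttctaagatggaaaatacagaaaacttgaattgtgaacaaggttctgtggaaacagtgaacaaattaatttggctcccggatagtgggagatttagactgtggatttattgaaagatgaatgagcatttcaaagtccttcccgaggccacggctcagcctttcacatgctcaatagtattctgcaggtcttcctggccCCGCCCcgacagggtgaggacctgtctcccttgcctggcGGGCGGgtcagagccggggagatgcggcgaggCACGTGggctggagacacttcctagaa
Unc5c: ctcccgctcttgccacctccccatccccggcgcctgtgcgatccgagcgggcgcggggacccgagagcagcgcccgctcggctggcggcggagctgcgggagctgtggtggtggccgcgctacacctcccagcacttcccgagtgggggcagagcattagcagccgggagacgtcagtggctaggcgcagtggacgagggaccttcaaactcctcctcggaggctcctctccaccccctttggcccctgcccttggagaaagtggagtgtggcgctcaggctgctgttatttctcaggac
Sema6d: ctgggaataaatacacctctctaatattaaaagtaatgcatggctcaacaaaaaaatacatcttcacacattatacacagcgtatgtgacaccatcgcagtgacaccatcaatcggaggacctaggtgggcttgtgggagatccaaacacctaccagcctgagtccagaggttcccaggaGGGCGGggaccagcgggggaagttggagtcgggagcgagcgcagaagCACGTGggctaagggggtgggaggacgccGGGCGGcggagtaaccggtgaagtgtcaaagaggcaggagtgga

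Windows were found for 55 of the 64 genes, 71 windows in all. The Ntn4 window held 4 matches to the GC box, 2 of them overlapping, and the Sema3e and Sema6d windows 2 each, while the Unc5c window held no match to any of the 5 motifs. A GC box was found in 71.8% of the 71 windows and in 35.7% of all 32851 windows of the table, and the median GC content was 64.3% against 52.7%. The E-box CACGTG stood in the windows of Sema3e and Sema6d, and in 7.04% of the 71 windows against 7.15% of all. A TATA box was found in 2.82% against 13.6%, an AP-1 site in 4.23% against 7.81%, and the SMAD palindrome in 0% against 0.213%. Of the 7 windows of the 6 lower genes, 5 held a GC box and 1, that of Slit2, a TATA box. A match describes the letters and is not evidence of binding.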

How the data were processed

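The deposited values are a log2 signal per probe set from 4 Affymetrix arrays (range 3.10 to 14.87, array medians 5.88 to 6.00); the scale was read from the values. The labels' protocols describe biotin labelling of 3 ug of RNA in 1 cycle and fragmentation of 20 ug of cRNA. How the authors summarised or normalized probes is not given in the sources used here. Array medians differed by 0.116, over a limit of 0.1, so the arrays were quantile normalized. After 64 control probe sets were left out, limma 3.58.1 (R 4.3.3, lmFit and eBayes, 2 residual and 3.71 prior degrees of freedom) was fitted to 45037 probe sets. Platform annotation gave 1 symbol for 34945 probe sets, several for 932 and none for 9160. Python 3.11.15 was used for counts and plots.

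The genes and lists were chosen with earlier results of these data known. Named were, per family, the 3 genes with the smallest p and the 2 with the highest mean. To these came the 10 with the largest difference each way among those without overlap. Per further list the plan was up to 4 genes by p and 2 by mean. Of the marker lists only some such genes are named, and none for fibroblasts, smooth muscle, leukocytes or epithelium. Flt4, Nrp1, Dcc and Robo4 are named outside these rules. Other genes outside them are said to be chosen after their values were seen. The scripts were tested on simulated data. Alternatives were the deposited values, median centring, brighter probe sets, the mean of probe sets, unmarked probe sets, trend with robust moderation, the replicate number as a block, and each array left out. Samples are called biological replicates in the titles; pools of mice were not described further. A result on 1 gene of the intracellular list is not reported here.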

Additional observations from a re-analysis of the deposited data

How the results depend on the processing

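No gene of the 64 passed the adjusted test under the alternatives that keep all arrays and use no block. In the same fits 0% to 0.022% of all genes passed it. The 6 lower genes at an unadjusted p under 0.05 numbered 5 to 8 under the alternatives that keep all arrays. Ntn4, Sema3e and Unc5c were among them in every one of these alternatives. Of all genes, 3.52% to 5.77% were lower and 2.14% to 3.79% higher at that threshold in the same fits. The higher genes, 1 in the main fit, were 0 among brighter probe sets, 0 among probe sets not marked for several transcripts, 2 with the mean of the probe sets (Efna4 and Ephb6), 2 with the replicate number as a block (Efna4 and Robo1), and 1 with intensity trend and robust moderation, which was Ephb6 and not Efna4. With each array left out in turn, genes called after adjustment numbered 0, higher genes 0 to 4 (1.09% to 7.55% of all genes), lower genes 5 to 11 (2.5% to 8.1% of all genes), and genes without overlap 32 to 52 in place of 18, where fewer arrays make overlap rarer. In these fits 20 to 38 of the 64 were lower without overlap, where 28.6% to 40.8% of all genes were. Higher without overlap were 9 to 24 of the 64, where 28.5% to 38.8% of all genes were. The median difference over the 64 ran from -0.13 to 0.03.

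With the replicate number as a block, limma called 2 genes of the 64 (3.12%, against 0.511% of all genes), Ntn4 (adjusted p = 0.0350) and Epha3 (adjusted p = 0.0440). Deviations of arrays with the same number correlated at 0.248, but the labels state no pairing, so the samples share only a number.

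Of 42 named genes, 20 kept their sign in every alternative run on them. Of these 20, 7 could not be run under 1 probe set filter, and 15 moved by over 1.5 times when 1 array was left out. Signs turned for Sema5b with the mean of the probe sets (0.053), Sema6c with unmarked probe sets (0.029), Ephb3 with centred medians (0.022) and Robo3 with deposited values (-0.0015). With 1 array left out, values that changed sign ran from -0.62 to 0.14 for Sema3a, -0.086 to 0.76 for Sema3c, -0.32 to 0.16 for Sema3f, -0.38 to 0.11 for Sema6c, -0.019 to 0.43 for Plxna1, -0.31 to 0.083 for Plxnb2, -0.29 to 0.077 for Epha10, -0.90 to 0.052 for Epha2, -0.10 to 0.087 for Ephb3, -0.18 to 0.088 for Ephb4. They ran from -0.39 to 0.25 for Efna5, -0.65 to 0.027 for Efnb2, -0.062 to 0.28 for Efnb3, -0.078 to 0.23 for Slit1, -0.35 to 0.11 for Slit3, -0.094 to 0.83 for Robo1, -0.13 to 0.29 for Robo2, -0.12 to 0.17 for Robo3, -0.32 to 0.56 for Ntn1, -0.16 to 0.071 for Unc5a, -0.34 to 0.44 for Unc5b. The cause was not tested. Fits without 1 array have 1 residual degree of freedom and assume that the lone array varies like the other group.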

Other observations

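Genes related to the 64 by sequence or name, but outside them, showed little difference. The netrin-G gene Ntng1, whose product is held on the surface by a lipid anchor, had log2 signals of 7.51 and 7.63 on the metastatic arrays and 7.59 and 7.60 on the non-metastatic arrays. Ntng2 had 6.87 and 7.11 against 6.86 and 7.06, and Unc5cl, an Unc5-like gene, 5.00 and 5.02 against 4.91 and 5.01. The groups overlapped in all 3. Within the 64, Sema5a, a transmembrane semaphorin, had probe sets in opposite directions: its brightest stood at 0.0071 (SE 0.20), another at -0.31 (SE 0.37), and 2 dim ones at 0.24 (SE 0.12) and 0.35 (SE 0.16), the latter pair higher without overlap. These genes were chosen after their values were seen.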
